A study of Mus musculus with 15 samples.

Results

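Potassium channel genes were followed in the ventricles of mice in which an inducible Celf1 transgene was switched on for increasing times. The group was defined by gene symbol: every gene whose symbol begins with Kcn, the Hcn genes of pacemaker channels, and the sulfonylurea receptor genes Abcc8 and Abcc9. The deposited expression table held 86 such genes of 16042. Of these, 30 had a mean level of at least 1 RPKM (reads per kilobase of transcript, scaled to the mapped reads of each library) over the 15 mice and entered the tests, among 10868 genes that did.

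Each group held 3 mice aged 20 to 22 weeks, and all 15 mice received food with doxycycline at 2 g/kg, after their food had been taken away for 2 to 3 hours. All carried MHCrtTA, a doxycycline-dependent activator under the cardiomyocyte promoter of the alpha-myosin heavy chain. The control mice had no Celf1 cassette and received doxycycline for 72 hours. The induced mice, labelled MHCrtTA/TRECUGBP1, also carried a Flag-tagged human Celf1 (isoform LYLQ) behind a tetracycline-responsive promoter, and were sampled after 12 hours, 24 hours, 72 hours or 7 days. The length of doxycycline treatment was therefore matched to the controls at 72 hours only. Atria and part of the apex had been cut away, and polyadenylated RNA of what remained was sequenced from paired ends.

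Potassium channels carry the outward currents that end the cardiac action potential and hold the resting potential. In the mouse ventricle, the transient outward current runs through pores encoded by Kcnd2 and Kcnd3 with the accessory subunit encoded by Kcnip2. Inward rectifiers of the Kcnj family hold the resting potential, ATP-sensitive channels pair a Kcnj pore with a sulfonylurea receptor and open when energy is short, and two-pore channels carry background leak. Celf1 is an RNA-binding protein that recognises GU-rich elements, acting on splicing and on the decay of messenger RNA.

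In the Celf1 row, listed under its older symbol Cugbp1, the controls lay between 33.3 and 36.1 RPKM. Induced mice lay between 219.7 and 351.0 RPKM at 12 hours, between 295.4 and 422.8 RPKM at 24 hours and between 158.9 and 180.9 RPKM at 72 hours. The mice labelled 7 days lay between 29.5 and 37.9 RPKM, overlapping the controls (-0.07 ± 0.20 on the log2(RPKM + 1) scale, SE; limma, adjusted p = 0.771), so that the label was not matched by a raised level in that row at that time. Whether that mouse row also counts reads of the human transgene is not stated in the sources. Results at 7 days below are therefore those of the libraries labelled 7 days. Depth was recovered from the steps between low values: 1 RPKM stands for 14.6 to 51.4 reads per kilobase of transcript, depending on the column, with a median of 24.2.

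Most tested members were lower in the induced mice, and the libraries labelled 7 days held the most calls. A call is an adjusted p below 0.05 in a limma fit on log2(RPKM + 1) across all 10868 genes. At 7 days 24 of the 30 tested members were lower than in controls and 3 were higher, where 28.2% of all tested genes were lower and 26.7% higher. Of those 3, Kcnab2 had a group mean of at least 1 RPKM at 7 days only. At 72 hours 10 members were lower and 0 were higher, against 5.22% lower and 6.39% higher among all tested genes. At 24 hours 6 were lower and 0 higher, against 10.6% and 5.38% of all genes. At 12 hours 7 were lower and 0 higher, against 12.7% and 0.524% of all genes. Among those lower at 12 hours were Abcc8, Kcna5, Kcnj12, Kcnj4, Kcnk3 and Kcnk9, and lower at 24 hours were Abcc8, Hcn2, Kcnj11, Kcnj12, Kcnj4 and Kcnk3. Lower at 72 hours were Abcc8, Hcn2, Kcnd2, Kcnh2, Kcnip2, Kcnj11, Kcnj12, Kcnj3, Kcnq1 and Kcnv2.

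The median difference from control over the 30 tested members was -0.52 on the log2(RPKM + 1) scale in the 12-hour group, and -0.39, -0.57 and -1.22 in the 24-hour, 72-hour and 7-day groups. Over all tested genes it was -0.30, -0.19, -0.10 and -0.03 in the same order. The 12-hour and 24-hour values of all genes were thus themselves shifted down, and when libraries were rescaled to a common median ratio the 12-hour count of lower members was 0 in place of 7. That rescaling also moved the calls over all genes from 57 higher and 1375 lower to 73 and 156 at 12 hours, and from 585 and 1151 to 923 and 743 at 24 hours. Between 72 hours and 7 days 17 members were lower and 3 higher at 7 days, against 22.3% and 22.6% of all tested genes. That difference uses no control values, but the controls share in its estimate of the spread. In the F test over all 5 groups 26 of the 30 passed, as did 71.3% of all tested genes. Among those that did not pass were Kcnd3, Kcnj5 and Kcnk6.

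The mice carry their own labels as replicate names, and nothing in the labels pairs mice between groups. In whole ventricle, fewer cells of a type and less RNA per cell cannot be told apart. The summed level of 6 cardiomyocyte markers (Myh6, Tnnt2, Tnni3, Actc1, Ryr2 and Mb) ran from 38873 to 41833 RPKM in controls, from 24430 to 31872 RPKM at 72 hours and from 10463 to 11647 RPKM at 7 days. Of these markers 5 of 6 were lower at 7 days, and Ryr2 was not called. Myh6, whose promoter drives the activator, went from 8932 to 9353 RPKM in controls to between 914.7 and 1195 RPKM at 7 days. Over the same step 6 fibroblast markers summed to 438 to 489 RPKM in controls and 1622 to 1928 RPKM at 7 days, and 5 macrophage markers to 58.7 to 78.6 RPKM and 276 to 433 RPKM. Of the fibroblast markers 5 of 6 were higher, and of the macrophage markers 5 of 5. Among smooth muscle and pericyte markers 3 of 6 were higher and 1 lower, among endothelial markers 3 of 6 were lower, and among 4 atrial myocyte markers 1 was higher and 1 lower. No defining marker was at 0 in every mouse, although Snap25, Syt1, Th and Prph of the neuron list and S100b of the Schwann cell list had means below 1 RPKM over the 15 mice. Of the neuron list's 2 tested markers, Tubb3, a tubulin, read 0.25, 0.07 and 0.07 RPKM in controls and 8.22, 4.43 and 8.78 RPKM at 7 days (2.81 ± 0.22, SE; limma, adjusted p = 2.45e-08). Stmn2, a stathmin, was lower at 7 days (-0.85 ± 0.18, SE; limma, adjusted p = 0.000881). At 72 hours 2 of the 4 atrial markers were lower, the atrial light chains Myl7 (-1.62 ± 0.48, SE; limma, adjusted p = 0.0382) and Myl4 (-1.26 ± 0.38, SE; limma, adjusted p = 0.0397). Myl7 read 1.81, 18.4 and 2.46 RPKM and Sln 0.95, 13.0 and 1.17 RPKM in the 72-hour mice A3264, A3278 and A3281. In both genes A3278 stood apart from the other 2 and lay inside the control range (Myl7 14.15 to 19.01 RPKM, Sln 11.1 to 18.45 RPKM). A3278 is also the only 72-hour mouse whose column name carries the code of the controls. Without it 16 members were lower at 72 hours in place of 10, and 1501 of all 10868 genes in place of 567. The part these shifts have in the changes below was not tested.

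**Figure D1:**
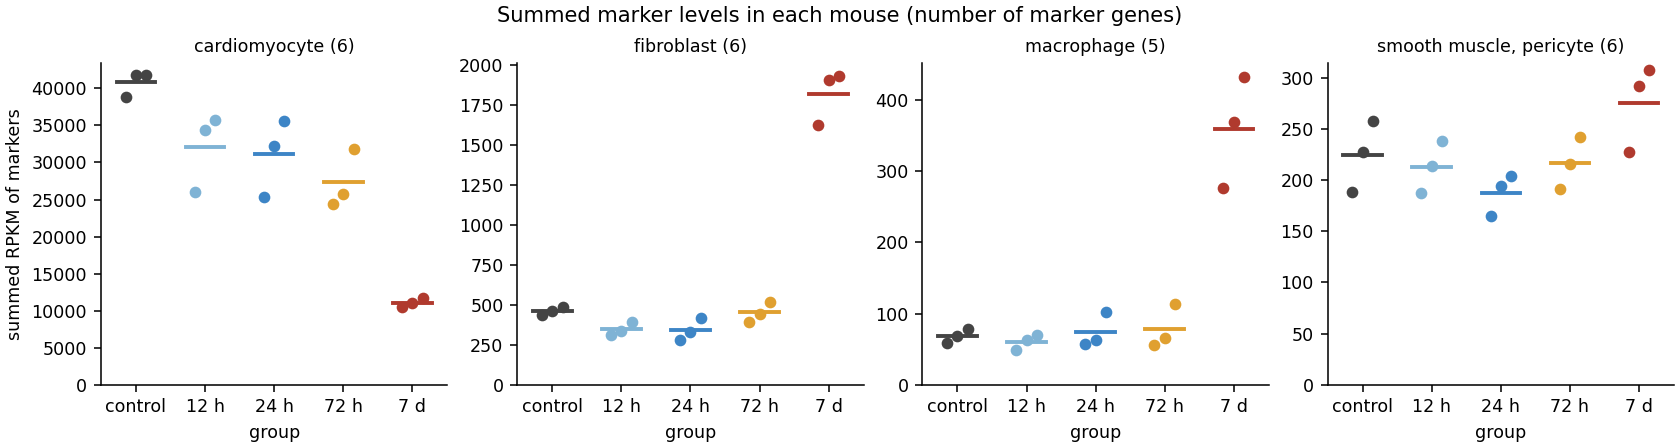
Summed RPKM of the marker genes of 4 cell types in each mouse (points) with the group mean (bar), by group on the x axis. The 3 mice labelled 7 days lie below all others for cardiomyocyte markers and above all others for fibroblast and macrophage markers.

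The 86 members summed to 424.5, 445.3 and 478.5 RPKM in the 3 control mice. At 12 hours the sums were 309.8, 292.5 and 291.1 RPKM, and at 24 hours 338.3, 259.3 and 333.4 RPKM. At 72 hours they were 251.2, 317.6 and 228.8 RPKM, and in the mice labelled 7 days 152.8, 184.4 and 196.4 RPKM. Every induced mouse lay below every control mouse, and every 7-day mouse below every other mouse. The 4 ATP-sensitive genes held 31.4% ± 0.94 (SD, n = 3) of the sum in controls and 22.2% ± 1.28 (SD, n = 3) at 7 days. The share of the transient outward genes was 8.05% ± 0.67 (SD, n = 3) in controls and 3.99% ± 0.42 (SD, n = 3) at 7 days. The 2-pore share went the other way, from 17.9% ± 1.60 (SD, n = 3) to 25.9% ± 0.26 (SD, n = 3), and no 7-day mouse overlapped a control mouse in any of these 3 shares. At 12 hours the 2-pore share was 11.9%. The summed 2-pore level itself was lower at 7 days, 39.1 to 51.0 RPKM against 69.4 to 93.5 RPKM in controls. Silent and auxiliary subunits held 2.23% ± 0.35 (SD, n = 3) in controls and 8.16% ± 1.2 (SD, n = 3) at 7 days, also without overlap.

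**Figure D2:**
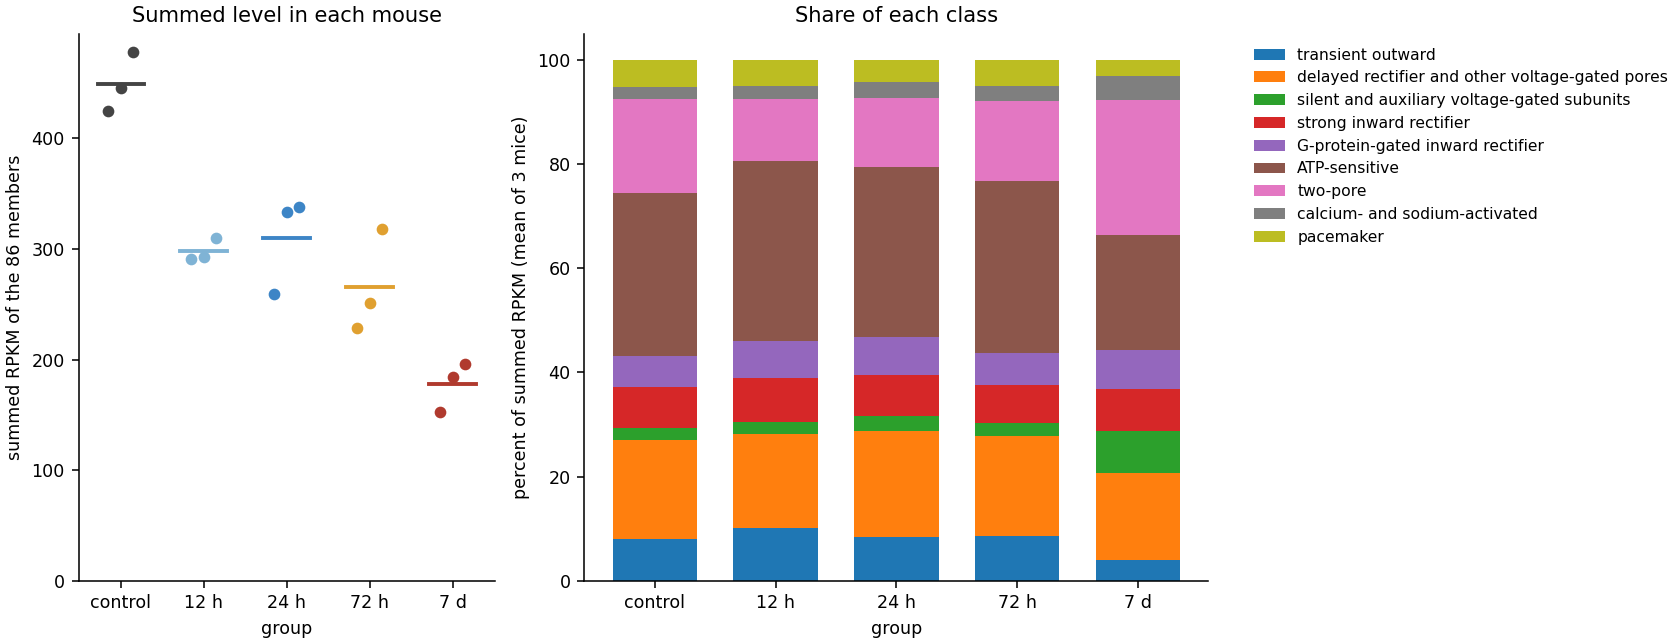
Left, the summed RPKM of the 86 members in each mouse (points) with the group mean (bar); right, the mean percent of that sum held by each class, as stacked bars by group. The sum is lowest in the mice labelled 7 days, and the transient outward share there (3.99%) is below the control share (8.05%); a class of 2 genes at no more than 0.088% in any mouse is not drawn.

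Of 8 transient outward genes 3 were tested, and all 3 were lower at 7 days. Kcnip2, the accessory subunit of the transient outward channel, showed the largest fall of all tested members at 7 days. Its levels were 24.5, 21.1 and 24.3 RPKM in controls, 21.0, 23.3 and 20.9 RPKM at 12 hours and 16.7, 17.4 and 13.9 RPKM at 24 hours. They were 12.4, 10.7 and 16.8 RPKM at 72 hours and 0.85, 1.51 and 0.78 RPKM at 7 days. The 12-hour mice overlapped the controls, whereas the 24-hour, 72-hour and 7-day mice each lay below all 3 controls. The log2(RPKM + 1) difference from control was -0.78 ± 0.19 (SE) at 72 hours (limma, adjusted p = 0.0124) and -3.58 ± 0.19 (SE) at 7 days (limma, adjusted p = 2.43e-10). The 72-hour call was lost in 5 of 24 other settings or left-out mice, and the 7-day call in 0 of 23. Kcnip2 was 10th from the lowest of 10868 differences at 7 days, and its mean RPKM there was 22.2-fold below control. Between 72 hours and 7 days the difference was -2.80 ± 0.19 (SE; limma, adjusted p = 5.2e-09).

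Kcnd2, a pore subunit of the same channel, read 7.46, 8.07 and 8.99 RPKM in controls, 4.87, 4.94 and 4.12 RPKM at 72 hours and 2.02, 1.94 and 2.49 RPKM at 7 days. The 3 groups did not overlap. Its difference was -0.70 ± 0.21 (SE) at 72 hours (limma, adjusted p = 0.0365) and -1.54 ± 0.21 (SE) at 7 days (limma, adjusted p = 9.73e-06). The 72-hour call was lost in 8 of 24 other settings or left-out mice, and the 7-day call in 0 of 23. Kcnd3, the other pore subunit, read 3.56, 2.01 and 3.92 RPKM in controls and 1.01, 2.13 and 1.45 RPKM at 7 days. One 7-day mouse lay inside the control range, and the 7-day difference was -0.71 ± 0.25 (SE; limma, adjusted p = 0.0225), which 5 of 22 other settings or left-out mice did not call. An exon of 1700095B22Rik overlaps Kcnd3 on the opposite strand, and whether the counting used strand is not given in the sources used here. In each mouse the ratio of Kcnip2 to Kcnd2 RPKM was 2.87 ± 0.36 (SD, n = 3) in controls, 2.93 ± 1.0 (SD, n = 3) at 72 hours and 0.51 ± 0.25 (SD, n = 3) at 7 days. The 7-day mice lay below all controls in that ratio. Kcna4, a pore of the slow component of the transient outward current, lay between 0.08 and 0.47 RPKM in all 15 mice and was not tested.

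**Figure D3:**
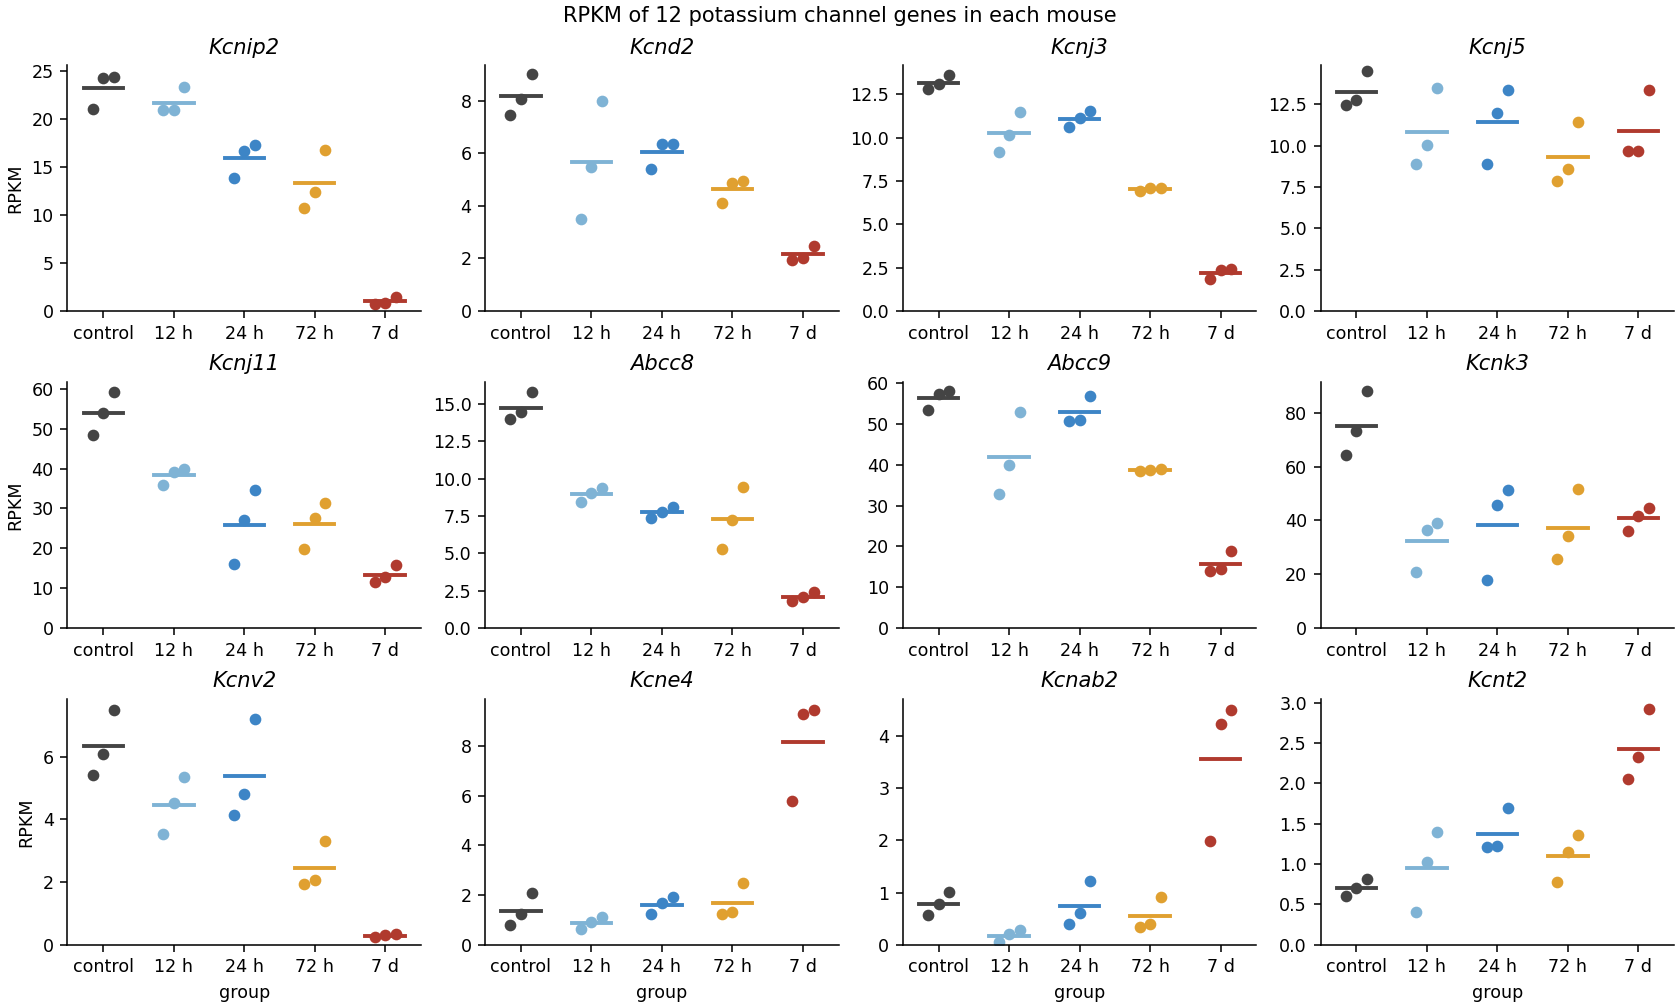
RPKM of 12 members in each mouse (points) with the group mean (bar), by group; each panel has its own y axis, which starts at 0. Kcnip2 and Kcnj3 step down between 72 hours and 7 days, Kcnk3 is low from 12 hours on, and Kcne4, Kcnab2 and Kcnt2 are highest in the mice labelled 7 days.

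Of 24 genes for delayed rectifiers and other voltage-gated pores, 6 were tested, and 5 of them, Kcnh2, Kcnq1, Kcna5 and Kcna7 included, were lower at 7 days. Kcnh2, the pore of the rapid delayed rectifier, read 28.1, 32.5 and 30.1 RPKM in controls, 14.7, 22.3 and 10.5 RPKM at 72 hours and 6.74, 11.2 and 10.8 RPKM at 7 days. Every induced mouse lay below the controls, although the 72-hour and 7-day ranges overlapped. The difference was -0.95 ± 0.24 (SE) at 72 hours (limma, adjusted p = 0.0178) and -1.59 ± 0.24 (SE) at 7 days (limma, adjusted p = 3.3e-05). The 72-hour call was lost in 6 of 24 other settings or left-out mice. At 7 days it was lost in 1 of 23, with the column code as a term.

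Kcnq1, the pore of the slow delayed rectifier, read 21.1, 19.8 and 18.6 RPKM in controls and 4.52, 9.53 and 11.4 RPKM at 7 days, when it differed by -1.22 ± 0.27 (SE; limma, adjusted p = 0.00115). The 7-day call of Kcnq1 was lost in 1 of 23 other settings or left-out mice, with the column code as a term. Its 72-hour call was lost in 13 of 24. Its auxiliary subunit Kcne1 was at most 0.63 RPKM in every mouse and was not tested. Kcna5, the pore of an ultrarapid current, read 11.8 to 12.0 RPKM in controls, 6.17 to 6.63 RPKM at 12 hours, 8.56 to 11.5 RPKM at 72 hours and 2.59 to 5.16 RPKM at 7 days. Its difference was -0.79 ± 0.20 (SE) at 12 hours (limma, adjusted p = 0.0229), -0.23 ± 0.20 (SE) at 72 hours (limma, adjusted p = 0.483) and -1.50 ± 0.20 (SE) at 7 days (limma, adjusted p = 1.07e-05). The 12-hour call was lost in 9 of 23 other settings or left-out mice, rescaling of the libraries among them. The step from 12 to 72 hours was not tested.

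Kcna7, a pore of the Kv1 family, lay between 3.81 and 6.46 RPKM in controls and between 0.93 and 1.07 RPKM at 7 days, a difference of -1.56 ± 0.23 (SE; limma, adjusted p = 2.56e-05).

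All 4 genes for strong inward rectifiers were tested and all 4 were lower at 7 days. Kcnj12, a pore of the resting inward rectifier, read 21.4, 23.8 and 23.8 RPKM in controls, 14.8, 11.9 and 11.5 RPKM at 12 hours, 15.9, 6.75 and 15.4 RPKM at 24 hours, 11.8, 14.8 and 9.58 RPKM at 72 hours and 6.59, 8.80 and 8.82 RPKM at 7 days. No induced mouse overlapped the controls. In the main fit it was called at every time, with a difference from -0.81 ± 0.25 (SE; limma, adjusted p = 0.0432) at 12 hours to -1.41 ± 0.25 (SE; limma, adjusted p = 0.000158) at 7 days. The call was lost in 13 of 23 other settings or left-out mice at 12 hours, 7 of 22 at 24 hours and 8 of 24 at 72 hours. At 7 days it was lost in 0 of 23.

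Kcnj2, the other main pore of that current, read 11.2, 5.72 and 7.87 RPKM in controls and 13.9, 7.36 and 12.2 RPKM at 12 hours. It read 4.04, 3.11 and 6.07 RPKM at 72 hours and 6.78, 3.62 and 2.92 RPKM at 7 days. The 7-day range overlapped the controls, and the difference there was -0.79 ± 0.28 (SE; limma, adjusted p = 0.0264), which 6 of 23 other settings or left-out mice did not call. Kcnj14 and Kcnj4, whose products are also inward rectifier pores, were low in all groups. Kcnj14 lay between 1.19 and 3.02 RPKM in controls and between 0.45 and 0.52 RPKM at 7 days, with a difference of -1.11 ± 0.26 (SE; limma, adjusted p = 0.00187). Kcnj4 lay between 1.59 and 2.49 RPKM in controls and between 0.56 and 1.38 RPKM at 7 days, with a difference of -0.61 ± 0.21 (SE; limma, adjusted p = 0.0228). That call was lost in 5 of 22 other settings or left-out mice, and after correction for GC content the value was -0.13.

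Of the G-protein-gated inward rectifiers, Kcnj3 and Kcnj5 were tested, and they encode the pore subunits that assemble into the acetylcholine-activated channel. Kcnj3 read 12.8, 13.1 and 13.6 RPKM in controls, 6.93, 7.10 and 7.08 RPKM at 72 hours and 1.83, 2.44 and 2.37 RPKM at 7 days. None of the 3 groups overlapped. Its difference was -0.82 ± 0.15 (SE) at 72 hours (limma, adjusted p = 0.00254) and -2.15 ± 0.15 (SE) at 7 days (limma, adjusted p = 5.75e-09). An exon of Gm17595 overlaps Kcnj3 on the opposite strand.

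Kcnj5 did not follow its partner at 7 days. It read 12.8, 14.5 and 12.5 RPKM in controls, 7.86, 11.4 and 8.57 RPKM at 72 hours and 9.69, 9.70 and 13.4 RPKM at 7 days. At 72 hours the mice lay below the controls, with a difference of -0.48 ± 0.20 that was not called (SE; limma, adjusted p = 0.126). The 7-day mice overlapped the controls, and the difference was -0.27 ± 0.20 (SE; limma, adjusted p = 0.269). The Kcnj5 to Kcnj3 ratio in each mouse was 0.998, 1.11 and 0.918 in controls, 1.13, 1.61 and 1.21 at 72 hours and 5.29, 3.98 and 5.65 at 7 days. The 7-day ratios lay above all others.

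All 4 genes for ATP-sensitive channels were lower at 7 days. In mm9, the mouse genome build of the submitters, Kcnj11 (chr7:53352533-53355607) and Abcc8 (chr7:53359893-53435403) lie 4285 bases apart on the minus strand. Kcnj8 (chr6:142513459-142519876) and Abcc9 (chr6:142536382-142650794) lie 16505 bases apart on the minus strand. Each pair thus joins a pore gene and a receptor gene.

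Abcc8, the sulfonylurea receptor SUR1, read 14.0, 15.8 and 14.4 RPKM in controls, 9.04, 9.36 and 8.45 RPKM at 12 hours, 7.79, 7.38 and 8.13 RPKM at 24 hours, 7.24, 9.47 and 5.25 RPKM at 72 hours and 2.04, 1.82 and 2.42 RPKM at 7 days. Each induced group lay below the controls. The difference was -0.66 ± 0.18 (SE) at 12 hours (limma, adjusted p = 0.0287) and -2.35 ± 0.18 (SE) at 7 days (limma, adjusted p = 1.57e-08), and it was called at 24 and 72 hours as well. The Abcc8 call was lost in 9 of 23 other settings or left-out mice at 12 hours, 4 of 22 at 24 hours and 2 of 24 at 72 hours. Its genomic neighbour Kcnj11, the pore Kir6.2, read 48.5, 54.1 and 59.3 RPKM in controls, 34.6, 15.9 and 27.0 RPKM at 24 hours, 27.5, 31.4 and 19.7 RPKM at 72 hours and 12.7, 11.4 and 15.9 RPKM at 7 days. The 24-hour, 72-hour and 7-day mice lay below the controls. The difference was -1.04 ± 0.24 (SE) at 72 hours (limma, adjusted p = 0.00967) and -1.95 ± 0.24 (SE) at 7 days (limma, adjusted p = 3.15e-06). The Kcnj11 call was lost in 4 of 24 other settings or left-out mice at 72 hours and 0 of 23 at 7 days.

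Abcc9, the receptor SUR2, was the second-highest member in controls at 58.1, 57.5 and 53.5 RPKM. It read 38.5, 38.9 and 38.9 RPKM at 72 hours and 13.9, 18.8 and 14.4 RPKM at 7 days. These groups did not overlap, yet the 72-hour difference of -0.53 ± 0.18 (SE) was not called (limma, adjusted p = 0.061). The 7-day difference of -1.79 ± 0.18 (SE) was (limma, adjusted p = 3.17e-07). Kcnj8, the pore Kir6.1, read 13.8, 16.0 and 18.0 RPKM in controls, 12.6, 19.7 and 13.4 RPKM at 72 hours and 7.44, 6.83 and 10.2 RPKM at 7 days. Its 72-hour mice overlapped the controls and its 7-day mice did not, with a difference of -0.89 ± 0.22 (SE; limma, adjusted p = 0.00231). The ratio of Kcnj11 to Abcc8 RPKM was 3.67 ± 0.38 (SD, n = 3) in controls and 6.35 ± 0.19 (SD, n = 3) at 7 days, without overlap.

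Of 12 genes for 2-pore channels 3 were tested, and 2 of them, Kcnk3 and Kcnk9, were lower at 7 days. Kcnk3, the leak channel TASK-1, had the highest mean of all members in controls and at 7 days. It read 64.3, 73.1 and 87.9 RPKM in controls and 20.8, 39.2 and 36.5 RPKM at 12 hours. It read 45.7, 17.9 and 51.3 RPKM at 24 hours, 34.1, 51.8 and 25.6 RPKM at 72 hours and 35.9, 41.8 and 44.6 RPKM at 7 days. No induced mouse overlapped the controls, and the induced groups overlapped one another. The difference was -1.24 ± 0.33 (SE) at 12 hours (limma, adjusted p = 0.0283), -1.04 ± 0.33 (SE) at 72 hours (limma, adjusted p = 0.0516) and -0.86 ± 0.33 (SE) at 7 days (limma, adjusted p = 0.0375). The 12-hour call was lost in 9 of 23 other settings or left-out mice, with a value of -0.06 when the column code was a term. The 7-day call did not survive 8 of 23 other settings or left-out mice, and with the column code as a term the value was 0.05.

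Kcnk9, the related channel TASK-3, read 2.61, 3.80 and 2.13 RPKM in controls and 0.03, 1.10 and 0.30 RPKM at 7 days, a difference of -1.42 ± 0.27 (SE; limma, adjusted p = 0.000322). Kcnk6, the channel TWIK-2, lay between 0.75 and 1.44 RPKM in controls and between 1.02 and 2.52 RPKM at 7 days, and was not called (limma, adjusted p = 0.267). Kcnk1, at 0 to 2.24 RPKM with a mean of 0.51 RPKM, was not tested, and Kcnk2 was not analysed here.

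Both tested pacemaker genes, Hcn2 and Hcn4, were lower at 7 days. Hcn2, a channel of the funny current, read 19.3, 18.0 and 27.5 RPKM in controls, 11.0, 15.2 and 10.6 RPKM at 72 hours and 4.03, 5.55 and 5.34 RPKM at 7 days, without overlap among these groups. The 12-hour, 24-hour and 72-hour mice overlapped one another, with means of 13.4, 12.3 and 12.3 RPKM. The Hcn2 difference was -0.76 ± 0.21 (SE) at 72 hours (limma, adjusted p = 0.0297) and -1.90 ± 0.21 (SE) at 7 days (limma, adjusted p = 1.35e-06). Its call was lost in 4 of 22 other settings or left-out mice at 24 hours and 7 of 24 at 72 hours. GC correction was among them at both times. At 7 days it was lost in 0 of 23. Hcn4, the main sinus node isoform, read 1.72 to 2.37 RPKM in controls and 0.27 to 0.63 RPKM at 7 days, a difference of -1.12 ± 0.20 (SE; limma, adjusted p = 0.000139). Kcnn1 and Kcnn2, small-conductance calcium-activated pores, were both lower at 7 days. Kcnn1 went from 4.30 to 6.81 RPKM in controls to 1.63 to 1.93 RPKM (-1.23 ± 0.21, SE; limma, adjusted p = 9.75e-05). Kcnn2 went from 1.72 to 2.93 RPKM to 0.71 to 0.81 RPKM (-0.89 ± 0.19, SE; limma, adjusted p = 0.000959).

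Among the silent and auxiliary voltage-gated subunits and the sodium-activated pore were the 3 members that were higher at 7 days, and also the second-largest fall. Kcnv2, a silent subunit that modifies other voltage-gated channels, read 6.09, 5.40 and 7.48 RPKM in controls, 3.32, 2.07 and 1.93 RPKM at 72 hours and 0.31, 0.23 and 0.33 RPKM at 7 days. The groups did not overlap. Its difference was -1.10 ± 0.21 (SE) at 72 hours (limma, adjusted p = 0.00347) and -2.49 ± 0.21 (SE) at 7 days (limma, adjusted p = 5.18e-08), and its mean RPKM at 7 days was 21.7-fold below control.

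Kcne4, a single-span subunit that inhibits several voltage-gated channels, read 0.79, 1.22 and 2.07 RPKM in controls, 1.24, 2.50 and 1.33 RPKM at 72 hours and 5.80, 9.46 and 9.29 RPKM at 7 days. The 72-hour mice overlapped the controls, and the 7-day mice lay above every other mouse. The difference was 1.97 ± 0.24 (SE) at 7 days (limma, adjusted p = 3.24e-06), a 6.02-fold ratio of mean RPKM. Kcnab2, a cytoplasmic beta subunit, read 0.78, 0.58 and 1.01 RPKM in controls, 0.20, 0.28 and 0.05 RPKM at 12 hours and 1.99, 4.22 and 4.49 RPKM at 7 days, a 7-day difference of 1.31 ± 0.24 (SE; limma, adjusted p = 0.000231). Its group means were 0.79 RPKM in controls, 0.18, 0.75 and 0.56 RPKM at 12, 24 and 72 hours and 3.57 RPKM at 7 days. Kcnab2 thus passed the filter of 1 RPKM only through the group in which it was high. That call is not independent of the filter. Gm16334 overlaps an exon of Kcnab2 on the same strand, so reads in that exon cannot be assigned to one gene by position. Kcnt2, a sodium-activated pore, read 0.82, 0.60 and 0.70 RPKM in controls and 2.92, 2.05 and 2.32 RPKM at 7 days, a difference of 1.0 ± 0.20 (SE; limma, adjusted p = 0.000518). After correction for GC content the Kcnt2 difference was -0.01. Fibroblast and macrophage markers were higher in these same mice, and their part in the rise of the 3 genes was not tested.

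**Figure D4:**
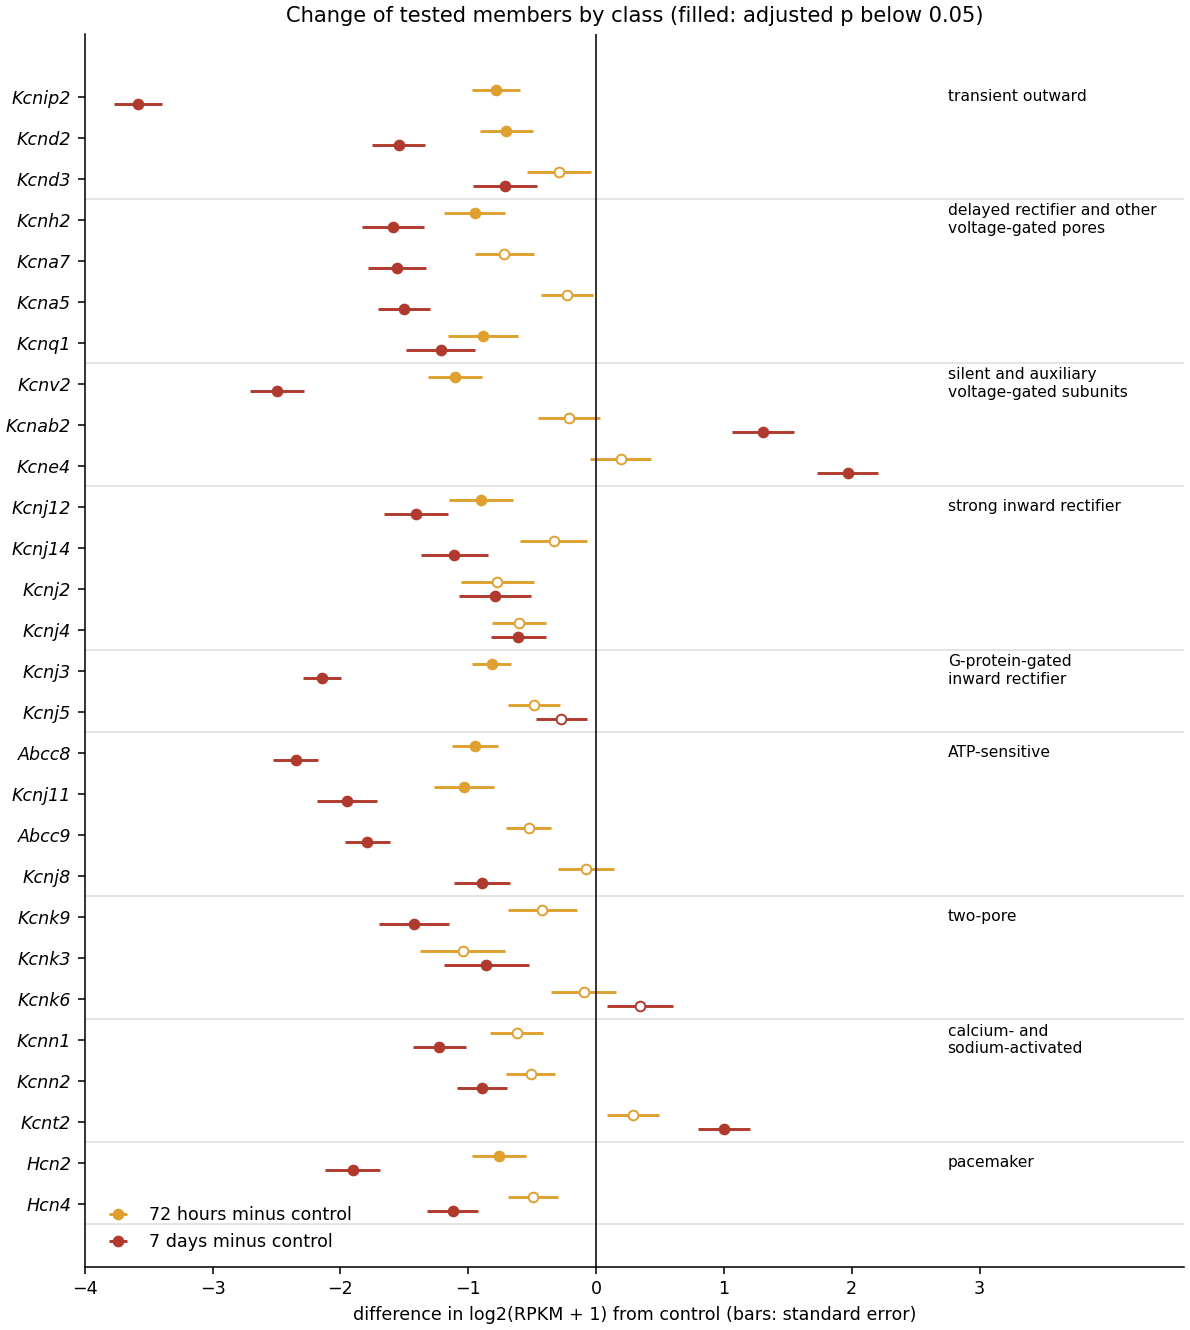
Differences from control in log2(RPKM + 1) for tested members, grouped by class, at 72 hours (yellow) and 7 days (red); bars are standard errors and filled points have an adjusted p below 0.05. At 7 days most members lie below 0 as filled points, with Kcnip2 lowest at -3.58, and Kcne4, Kcnab2 and Kcnt2 lie above it.

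The 56 members below the filter were all above 0 RPKM in at least 1 mouse, and 29 of them had a mean below 0.1 RPKM. Of the 56, 8 reached 1 RPKM in some mouse, and the highest single value was 2.86 RPKM, in Kcnk13. Next to the filter, tested members just inside it included Kcnk6 (mean 1.11 RPKM) and Kcnab2 (1.17 RPKM), and untested ones just outside it included Kcnip3 (0.74 RPKM) and Kcnk13 (0.67 RPKM). Kcnab2 passed only through its 7-day values.

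The level order of the members changed between controls and 7 days. Kcnk3, Abcc9 and Kcnj11 held ranks 1 to 3 in both groups. Kcnip2 went from rank 5 to rank 22, Abcc8 from 10 to 18 and Kcnv2 from 17 to 30, the lowest of the tested members. Kcne4 went from rank 27 to rank 7 and Kcnj5 from 11 to 4. In controls Kcnip2 and Kcnj12 (means 23.3 and 23.0 RPKM) and Kcnj5 and Kcnj3 (13.3 and 13.2 RPKM) differed by less than their spread.

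Genes that act beside the channels are read against the 26.7% of all tested genes that were higher and the 28.2% that were lower at 7 days. Among partners, anchors and receptor-side genes, 15 were tested, and 2 were higher and 5 lower, with a median of -0.33 against -0.03 for all genes. The higher ones were Cav3, the muscle caveolin (0.69 ± 0.26, SE; limma, adjusted p = 0.0334), and Gnai2, an inhibitory G-protein subunit (0.69 ± 0.25, SE; limma, adjusted p = 0.0293). Fhl2, a LIM-domain protein that binds channel subunits, differed by -1.34 ± 0.28 (SE; limma, adjusted p = 0.000688), and Ank2, the membrane anchor ankyrin-B, by -1.08 ± 0.20 (SE; limma, adjusted p = 0.0002). Rgs6 and Gnb5, whose products together turn off the G-protein signal to the channel of Kcnj3 and Kcnj5, differed by -1.06 ± 0.17 (SE; limma, adjusted p = 6.67e-05) and -0.92 ± 0.22 (SE; limma, adjusted p = 0.00182).

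Of 12 tested genes for the sodium-potassium pump and potassium cotransport, 3 were higher and 4 lower at 7 days, with a median of 0.05. Atp1b1, the main beta subunit, read 165.8, 153.7 and 146.4 RPKM in controls and 312.2, 302.1 and 328.3 RPKM at 7 days (1.01 ± 0.16, SE; limma, adjusted p = 5.53e-05). Fxyd5, a pump regulator, differed by 2.25 ± 0.27 (SE; limma, adjusted p = 2.82e-06) and Atp1b3, another beta subunit, by 1.11 ± 0.21 (SE; limma, adjusted p = 0.000239).

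Of 8 transcription factors known to act on these genes, 3 were lower and 0 higher at 7 days, with a median of -0.44. Klf15, a factor that acts on Kcnip2, read 26.9, 28.4 and 28.4 RPKM in controls, 6.82, 10.1 and 12.2 RPKM at 12 hours, 15.9, 16.8 and 10.8 RPKM at 72 hours and 2.25, 6.12 and 7.33 RPKM at 7 days. No induced mouse overlapped the controls, and the 7-day difference was -2.32 ± 0.31 (SE; limma, adjusted p = 8.76e-06). Dbp, a clock output factor, read 63.6 to 70.5 RPKM in controls, 4.66 to 5.60 RPKM at 12 hours, 27.2 to 49.2 RPKM at 72 hours and 1.62 to 8.84 RPKM at 7 days. The time of day of sampling is not given in the labels. Irx4, a ventricular homeobox factor, differed by -1.36 ± 0.26 (SE; limma, adjusted p = 0.000364) at 7 days.

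Because Celf1 recognises GU-rich RNA, the longest annotated 3′ untranslated region of each tested member (GENCODE vM1, mm9) was searched on the transcript strand for TGTTTGT. The motif occurred in 7 of 29 members with such a region (24.1%), and in 27.4% of 9608 tested genes. Matches came at 0.19 per kilobase in the members and at 0.31 per kilobase in all of those genes. The first match of each of 4 members is shown in a window of 30 bases, from members that fell, rose or were not called at 7 days, with the motif in capitals.
Kcnj3, chr2:55449102-55449131, plus strand, lower at 7 days: tgatctgacaaTGTTTGTacactcaggatt
Kcnv2, chr19:27410235-27410264, plus strand, lower at 7 days: aatataaatagTGTTTGTatccctcagctc
Kcnt2, chr1:142506955-142506984, plus strand, higher at 7 days: gtttgattgatTGTTTGTttttggtaactt
Kcnj5, chr9:32123114-32123143, minus strand, not called at 7 days: gatgaatatggTGTTTGTgtacatgcgtgt
The members with a match thus lay on all sides of the test, and Kcnip2 and Kcne4, the largest fall and the largest rise, had 0 matches. A match is a description of letters and not a bound site.

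The promoters of those 2 genes are shown because they stand at the ends of the range of change. RefSeq windows (GRCm38.p6) were found for 19 of the 30 tested members, and the 250 bases before each start were searched on both strands, with matches in capitals. The GC box was spelled GGGCGG. The E-box, a site of basic helix-loop-helix factors, was spelled CACGTG. The TATA element, which positions the start of transcription, was spelled TATAAA.
Kcnip2, chr19:45816064-45816313, minus strand: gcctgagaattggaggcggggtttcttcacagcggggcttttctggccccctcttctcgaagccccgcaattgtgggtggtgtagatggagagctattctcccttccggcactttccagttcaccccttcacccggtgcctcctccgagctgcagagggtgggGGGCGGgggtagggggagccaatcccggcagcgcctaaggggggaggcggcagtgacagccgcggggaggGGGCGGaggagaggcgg
Kcne4, chr1:78816661-78816910, plus strand: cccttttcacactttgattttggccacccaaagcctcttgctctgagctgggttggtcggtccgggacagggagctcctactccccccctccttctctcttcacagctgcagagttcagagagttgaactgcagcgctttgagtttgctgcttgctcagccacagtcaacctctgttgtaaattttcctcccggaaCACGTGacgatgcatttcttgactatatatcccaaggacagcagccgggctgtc
The Kcnip2 window held 2 GC boxes and the Kcne4 window 1 E-box. A GC box was in 11 of 22 member windows (50.0%) and in 32.7% of 32851 windows of all genes, an E-box in 9.09% and 6.02%, and a TATA element in 0 and 12.4%.

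The columns of the table carry 9 codes whose meaning the sources do not state. The 3 controls share a code with 1 mouse of the 72-hour group only, while 2 mice of the 72-hour group and all 3 of the 7-day group share 3 codes. Within the columns of those shared codes, Kcnip2 read 12.4 and 16.8 RPKM at 72 hours and 1.51, 0.85 and 0.84 RPKM at 7 days. Kcne4 read 1.24 and 1.33 RPKM at 72 hours and 9.46, 5.80 and 8.72 RPKM at 7 days. In these columns 15 members were lower and 3 higher at 7 days than at 72 hours, beside 2020 lower and 2530 higher of all 10868 genes. With the code as a term in the fit against controls, 13 members were lower and 2 higher at 7 days, beside 1069 lower and 2102 higher of all genes. In that fit 1 member was lower at 72 hours, beside 54 lower and 322 higher of all genes. In the columns with the controls' own code 2 members were lower at 72 hours, beside 33 lower and 235 higher of all genes.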

How the data were processed

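Ventricular RNA of 15 mice was measured as RPKM, which the authors deposited in 1 table rounded to 2 decimals, made with TopHat and Bowtie on mm9 per the submitters' processing notes. Tool versions, the counter and its strand setting were not given in the sources used here. Of 20 columns, the 2 of each of 5 mice were averaged. Depth (14.6 to 51.4 reads per kilobase for 1 RPKM) was recovered from the steps of low values in 90 single-exon olfactory receptor genes, and this was tested on simulated data.

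The 10868 genes averaging 1 RPKM or more were fitted with limma 3.58.1 in R 4.3.3, with a trend on log2(RPKM + 1), all 5 groups sharing 1 estimate of spread. Tests were two-sided and Benjamini-Hochberg adjusted over all genes, with a threshold of 0.05. A fold on the log2(RPKM + 1) scale understates changes of low genes. The 5 comparisons were each time against control, and 7 days against 72 hours.

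Members, classes and lists were chosen with earlier results of these data known. Named were members called in any comparison with control, 22 channel genes known for mouse ventricle whatever their values, and up to 4 called genes per other list and comparison. Alternatives were another pseudocount (0.1), 2 other filters, median-ratio and quantile scaling, a GC correction, fits of 2 groups alone, the column code as a term and leaving out each mouse. Some genes are not reported here by name. Promoter sequences are from RefSeq, 3′ regions from GENCODE vM1.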

Additional observations from a re-analysis of the deposited data

Results flagged for a closer look

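For 20 tested members the change from control differed between 72 hours and 7 days, by a test of that difference (7 days minus 72 hours, limma, adjusted p below 0.05). Of all tested genes 22.6% were higher and 22.3% lower by the same test. The difference uses no control values, but the controls share in the estimate of the spread. The mice labelled 7 days showed no raised Celf1 level and had doxycycline for longer. In log2(RPKM + 1), the difference was -2.80 for Kcnip2, the channel accessory subunit with the largest step. It was -1.40 for Abcc8, -1.39 for Kcnv2, -1.33 for Kcnj3, -1.27 for Kcna5 and -1.26 for Abcc9. It was -1.15 for Hcn2 and -1.0 for Kcnk9. Smaller steps down were -0.91 for Kcnj11, -0.84 for Kcnd2, -0.84 for Kcna7, -0.82 for Kcnj8, -0.78 for Kcnj14, -0.64 for Kcnh2, -0.63 for Hcn4 and -0.61 for Kcnn1. Steps up were 0.71 for Kcnt2, 1.52 for Kcnab2 and 1.77 for Kcne4. Kcnab2 passed the filter only through its 7-day values. Of the 20, 14 were called under all of the alternatives run for them.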

How the results depend on the processing

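At 7 days 14 of the 27 called members, Kcnip2, Kcnj3, Abcc8, Abcc9, Kcnj11 and Kcne4 among them, were called under all alternatives and left-out mice run for them; at 12, 24 and 72 hours 0 were. The cause of the shifts below was not tested. At 12 hours 7 members were lower, beside 1375 of all 10868 genes. Without a filter 3 were, beside 834 of 16042 genes. With median-ratio scaling, quantile normalization, GC correction or the column code 0 were, beside 156, 143, 110 (of 9672) and 4 of all genes. A fit of both groups alone gave 15, beside 3033 of all genes. Leaving out mice gave 0 to 13, beside 126 to 2211 of all genes. The count was 0 without control A3259, control A3280 or 12-hour A3276. At 24 hours 6 were lower, beside 1151 of all 10868 genes. GC correction gave 1 lower, beside 446 of 9672 genes, and no filter gave 1 higher, beside 399 of 16042. Leaving out mice gave 0 to 9 lower, beside 19 to 1791 of all genes. At 72 hours 10 were lower, beside 567 of all 10868 genes. The column code gave 1, beside 54 of all genes. The controls' own code leaves only A3278 at 72 hours. Leaving out mice gave 3 (control A3280) to 16 (A3278), beside 141 and 1501 of all genes in those 2 fits. At 7 days 24 were lower and 3 higher, beside 3061 and 2899 of all 10868 genes. No filter, which takes in all 86 members, gave 11 higher, beside 3612 of 16042 genes. A mean RPKM of at least 5, which tests fewer members, gave 15 lower and 0 higher, beside 2456 and 1821 of 7474 genes. The column code gave 13 lower, beside 1069 of all genes. Leaving out mice gave 20 to 24 lower, beside 2478 to 3253 of all genes. For 7 days against 72 hours 17 were lower and 3 higher, beside 2427 and 2452 of all 10868 genes. No filter gave 9 higher, beside 3127 of 16042 genes. A mean of at least 5 gave 11 lower and 0 higher, beside 1957 and 1524 of 7474 genes. The column code gave 5 higher, beside 3272 of all genes. Leaving out mice gave 14 to 18 lower, beside 1855 to 2566 of all genes. With a filter of 5, 0 higher members follow from the low levels of the 3 that rose. In the F test 26 of 30 members passed, beside 71.3% of all tested genes. A mean of at least 5 tests fewer members, and 15 of those passed, a count that cannot be set against 26. Leaving out mice gave 24 to 27. The shares of all genes under these other F-test settings were not computed. F tests with the column code or of 2 groups alone were not run. Kcnt2 at 7 days was -0.0081 with GC correction, and Kcnk3 was 0.0547 with the column code. Members had a median GC content of 56.4% against 50.6% for all tested genes. The 2 alternatives on shared codes were chosen after seeing the data. No paired analysis was possible because the replicate labels are mouse numbers that no 2 groups share.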

Other observations

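A pair of members below the filter was higher in the mice labelled 7 days and was chosen after the values were seen. Other members below the filter were higher there too. Without a filter 3612 of 16042 genes were called higher at 7 days, and the count of members in that fit is given above. Kcnn4, an intermediate-conductance calcium-activated channel of blood and immune cells, read 0.19, 0.08 and 0.18 RPKM in controls and 1.68, 1.42 and 1.84 RPKM at 7 days. Kcnk13, a 2-pore channel, read 0.10, 0.11 and 0 RPKM in controls and 1.82, 2.44 and 2.86 RPKM at 7 days. In both, every 7-day mouse lay above every other mouse. In the same mice 5 of 5 macrophage markers and 5 of 6 fibroblast markers were higher. Of the 6 smooth muscle and pericyte markers 3 were higher and 1 lower. The part of these marker shifts in the values of Kcnn4 and Kcnk13 was not tested.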
